A study of Arabidopsis thaliana with 6 samples.

Results

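SNF2-family proteins are ATP-driven chromatin remodellers, and transcripts of 8 Arabidopsis thaliana genes of this family, chr31, ATRX, CHR17, CHR18, CHR23, CHR34, CHR40 and CHR42, were followed in seedlings that had grown in red light or lacked 4 PIF proteins. The genes were chosen from the family with earlier results of these data known, and are 8 of the 7234 genes with a named feature on the arrays. Another 4 genes listed as SNF2-family members also had a named feature and are described further below. Genes are called measured below where they had a named feature. Another 37780 features carry no gene name, so a gene not measured in this sense may still have been on the arrays. The study set 2 kinds of whole seedlings, each grown for 60 h, against dark-grown wild-type Col-0. One was Col-0 kept in red light of 24 μmol m-2 s-1 without interruption (3 arrays), and the other was the pif3pif4pil5pil6 quadruple mutant, pifQ, kept in darkness (3 arrays). All seedlings, the dark Col-0 reference included, had first been kept dark for 3 days at 4 °C on medium with 1% sucrose and then 6 h in white light of 100 μmol m-2 s-1. Each two-colour array carried 1 independently grown sample in Cy5 and dark Col-0 in Cy3, and each value is the log2 ratio of the sample over dark Col-0.

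SNF2-type ATPases use ATP to slide, evict or exchange nucleosomes, and so set how open a stretch of DNA is to transcription, silencing or repair. The family divides into groups with different tasks. SWI/SNF ATPases such as CHR23 disrupt nucleosomes, ISWI ATPases such as CHR17 space them evenly, and ATRX takes part in depositing the histone variant H3.3. The plant-specific CLASSY and DRD1 group, to which chr31, CHR34, CHR40 and CHR42 belong, serves DNA methylation guided by small RNAs. The PIF proteins are bHLH transcription factors that keep dark-grown seedlings in the etiolated form and are broken down after phytochrome has been activated by light. Seedlings leaving that form change the transcripts of a large part of their genes.

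Each of the 8 genes was represented by 1 feature. Of these genes, chr31 (AT1G05490), ATRX (AT1G08600) and CHR18 (AT1G48310) lie on chromosome 1 in the TAIR10.1 annotation, CHR34 (AT2G21450) on chromosome 2, CHR40 (AT3G24340) on chromosome 3, and CHR17 (AT5G18620), CHR23 (AT5G19310) and CHR42 (AT5G20420) on chromosome 5. CHR17 has a close relative in CHR11 and CHR23 has one in CHR12. Neither relative had a named feature, and whether the CHR17 and CHR23 features also bind the relatives' transcripts was not tested.

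The arrays differed in how well they resembled each other. Across genes, which are not independent replicates, the red light arrays correlated at r = 0.812 to 0.913 and the pifQ arrays at 0.423 to 0.615. The pifQ replicate 3 array stood apart, correlating at 0.506 and 0.423 with the other pifQ arrays and at 0.593 to 0.695 with the red light arrays. None of the 4 mutated PIF genes had a named feature, so these transcripts gave no check of the mutant label. In whole seedlings, a changed share of some cell type and a changed amount of RNA per cell cannot be told apart. Every array had the sample in Cy5 and dark Col-0 in Cy3. In the comparisons against dark Col-0, a gene's dye effect and its change in level therefore cannot be told apart. The labels give no processing batch.

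Red light went with a higher CHR23 transcript level and a lower CHR42 level, and none of the other 6 genes passed the test. CHR23 rose 1.40-fold (log2 0.49 ± 0.11, SD, n = 3) and CHR42 fell by 0.46 on the log2 scale (a 1.38-fold lower level, SD 0.31, n = 3). These are 2 of 8 genes, or 25.0%, where 37.8% of all 7234 genes passed an adjusted p of 0.05 by limma with Benjamini-Hochberg adjustment (18.8% of all genes higher and 19% lower). The share among the 8 genes was thus not above that of genes at large. Their median log2 ratio was -0.015, and that of all genes was -0.021.

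CHR23, also known as MINU2, is a SWI/SNF-type ATPase that acts together with CHR12 in embryo and meristem development. Its log2 ratio was 0.59, 0.49 and 0.38 on red light replicates 1, 2 and 3. In dark pifQ it was -0.14, 0.15 and 0.23. All 3 red light arrays therefore lay above 0 and above all 3 pifQ arrays, which lay on both sides of 0. For 13.2% of all genes the red light arrays all lay above the pifQ arrays. By limma the red light ratio had an adjusted p of 0.0112 and an interval of 0.22 to 0.75 on the log2 scale (95%, not adjusted for the number of genes). The call was lost without red light replicate 1 (log2 0.43, adjusted p = 0.1003) and without red light replicate 2 (log2 0.48, adjusted p = 0.0534), with the ratio above 0 in both cases.

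CHR42, also known as CLSY2, is 1 of the 4 CLASSY proteins, which bring RNA polymerase IV to the loci where it starts small-RNA production. Its log2 ratio was -0.19, -0.79 and -0.41 on red light replicates 1, 2 and 3. In dark pifQ it was -0.10, -0.17 and -0.15. CHR42 was the 1 gene of the 8 that lay below 0 on all 6 arrays, as 19.5% of all genes did. Every red light value lay below every pifQ value, as for 10.6% of all genes. By limma the red light ratio had an adjusted p of 0.0233 and an interval of -0.76 to -0.17 on the log2 scale. The lowest value came from replicate 2, and without that array the ratio was -0.30 with an adjusted p of 0.153. Without red light replicate 3 it was -0.49, with an adjusted p of 0.0697. With arrays weighted by their fit to the other arrays the ratio moved to -0.27, and the call held at an adjusted p of 0.0183.

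**Figure D1:**
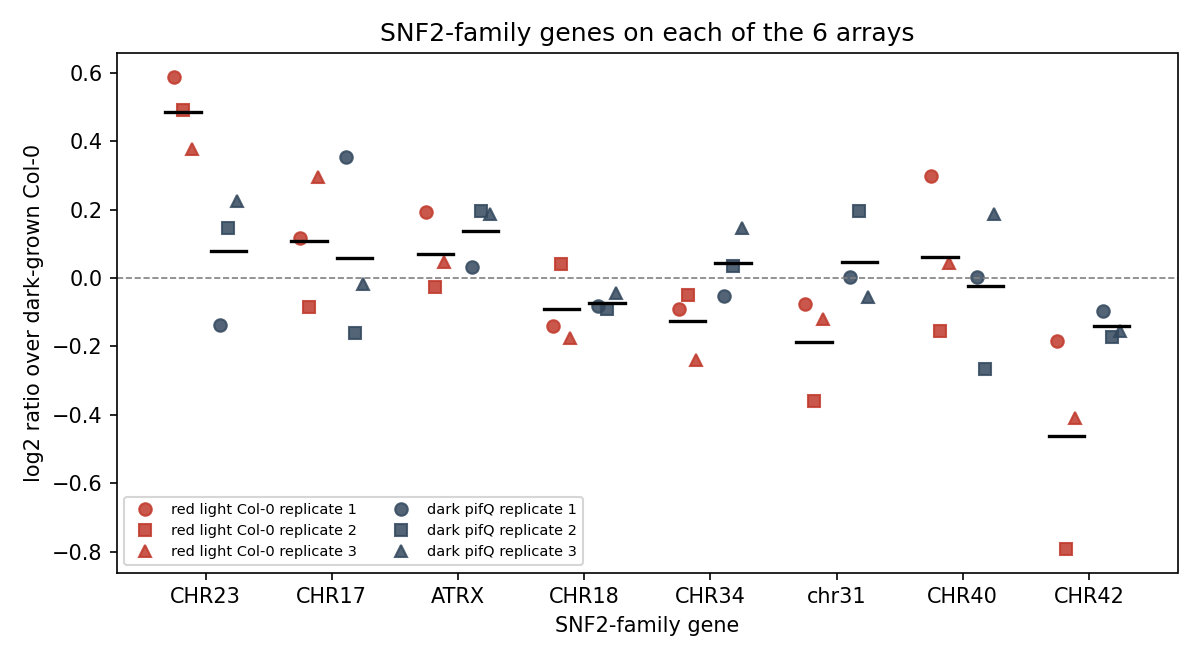
The log2 ratio over dark-grown Col-0 (vertical axis) of each SNF2-family gene (horizontal axis), with a red marker for each of the 3 red light Col-0 arrays, a dark marker for each of the 3 dark pifQ arrays and a black line at each group mean. The red light values of CHR23 lie between 0.38 and 0.59, above its pifQ values, and those of CHR42 lie between -0.79 and -0.19, below its pifQ values.

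The other CLASSY genes were chr31, known as CLSY3, and CHR40, known as CLSY4. For chr31 the red light values were -0.08, -0.36 and -0.12 on replicates 1, 2 and 3, a mean of -0.19 ± 0.15 (adjusted p = 0.231 by limma). In dark pifQ the values of chr31 were 0.0032, 0.20 and -0.06. Every red light value thus lay below every pifQ value, as for 10.6% of all genes. CHR40 had no such order. Its red light values were 0.30, -0.15 and 0.04 on the log2 scale, and its pifQ values were 0.0034, -0.27 and 0.19. Both groups thus spanned 0 and overlapped, and the red light mean of 0.06 ± 0.23 had an adjusted p of 0.762 by limma. With array weights the red light ratio of CHR40 was 0.22, which passed at an adjusted p of 0.0382, and without red light replicate 1 it was -0.06. The fourth CLASSY gene, CLSY1, had no named feature. Of the 3 measured CLASSY genes, CHR42 thus fell in red light, as 19% of all genes did, and the other 2 had no call.

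CHR34 belongs to the same plant-specific group as DRD1, the remodeller that works with RNA polymerase V, which had no named feature. The red light values of CHR34 were -0.09, -0.05 and -0.24 on replicates 1, 2 and 3, with a mean of -0.13 ± 0.10 (adjusted p = 0.387 by limma). In dark pifQ they were -0.05, 0.04 and 0.15. The red light arrays were all below 0 while 2 of 3 pifQ arrays were above it, and the lowest pifQ value fell within the red light range.

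CHR17 is an ISWI-type ATPase that, with CHR11, maintains regular nucleosome spacing along genes. Its log2 ratios were 0.12, -0.08 and 0.29 in red light and 0.35, -0.16 and -0.02 in dark pifQ. The groups overlapped, and the pifQ array with the highest CHR17 value, replicate 1, exceeded all red light arrays. The red light mean was 0.11 ± 0.19, with an adjusted p of 0.570 by limma.

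ATRX acts alongside the HIRA complex in placing histone H3.3 into chromatin. Its log2 ratios were 0.19, -0.03 and 0.05 in red light and 0.03, 0.20 and 0.19 in dark pifQ, again with overlapping groups. The red light mean of ATRX was 0.07 ± 0.11 (adjusted p = 0.648 by limma). CHR18 had log2 ratios of -0.14, 0.04 and -0.18 in red light, a mean of -0.09 ± 0.12 (adjusted p = 0.530 by limma). In dark pifQ the values of CHR18 were -0.08, -0.09 and -0.04, all within the red light range.

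For the 6 genes without a call in red light the data bound the array ratio rather than show that the transcript was unchanged. Without intensities, whether a feature was too dim for its ratio to follow its transcript could not be seen. Their 95% intervals lay between -0.44 (chr31) and 0.41 (CHR17) on the log2 scale, so that a ratio beyond 1.36-fold was outside all 6 intervals. Because each ratio was tested against 0, variation among dark Col-0 controls is left out of these intervals wherever arrays shared a control extract, and no label says how many extracts there were.

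**Figure D2:**
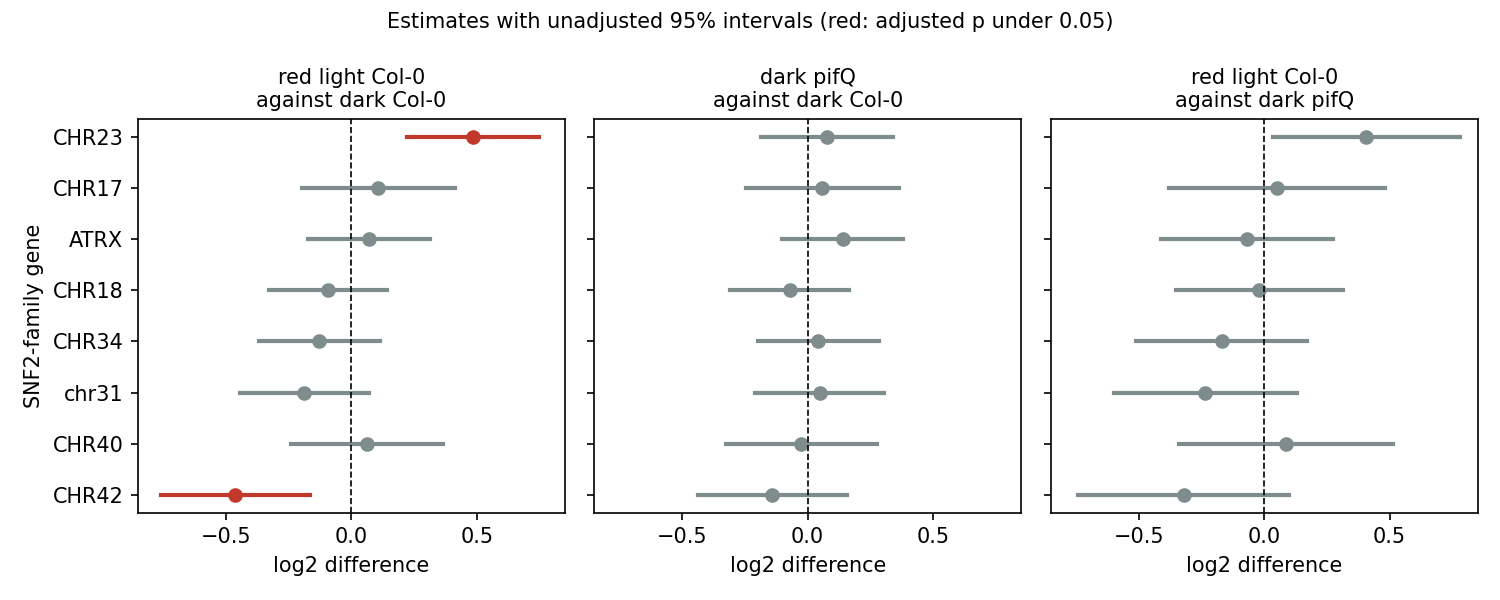
Estimated log2 difference (horizontal axis, dot) with its 95% interval (line, limma, not adjusted for the number of genes) for each SNF2-family gene (vertical axis) in the 3 comparisons. The intervals drawn in red, CHR23 and CHR42 in red light, passed an adjusted p of 0.05, and no gene passed in the other 2 comparisons.

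In darkness, the loss of the 4 PIF proteins was not accompanied by a detectable change in any of the 8 genes. Their mean log2 ratios in pifQ over dark Col-0 ran from -0.14 ± 0.04 for CHR42 to 0.14 ± 0.09 for ATRX (SD, n = 3). By limma 0 of 8 genes passed, with adjusted p from 0.427 to 0.924, and 0 had an unadjusted p under 0.05. Of all 7234 genes 11.6% passed in this comparison (4.59% higher and 7.04% lower), and 0 of the 8 passed under each of 16 alternative settings, among them leaving out pifQ replicate 3. The 95% intervals of the 8 genes lay between -0.44 (CHR42) and 0.38 (ATRX), so an array ratio beyond 1.36-fold was outside all of them. As in red light, this bounds the ratio and not the transcript of a feature that may have been dim.

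The pifQ ratios of the 8 genes were close to 0 also beside other genes. Their median absolute log2 ratio was 0.065, and that of all genes was 0.196. Of all genes, 62.1% lay at least as far from 0 in pifQ as CHR42 and 62.8% at least as far as ATRX, the outermost 2 of the 8. In red light 31.1% of genes lay at least as far from 0 as CHR23 and 33.0% as CHR42, while the other 6 had between 64.2% (chr31) and 85.3% (CHR40) of genes at or beyond their distance. The median SD between the arrays was also smaller for the 8 genes than for all genes, at 0.134 against 0.171 in red light and 0.116 against 0.243 in pifQ. These shares and medians describe the 8 genes and were not tested against other genes.

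**Figure D3:**
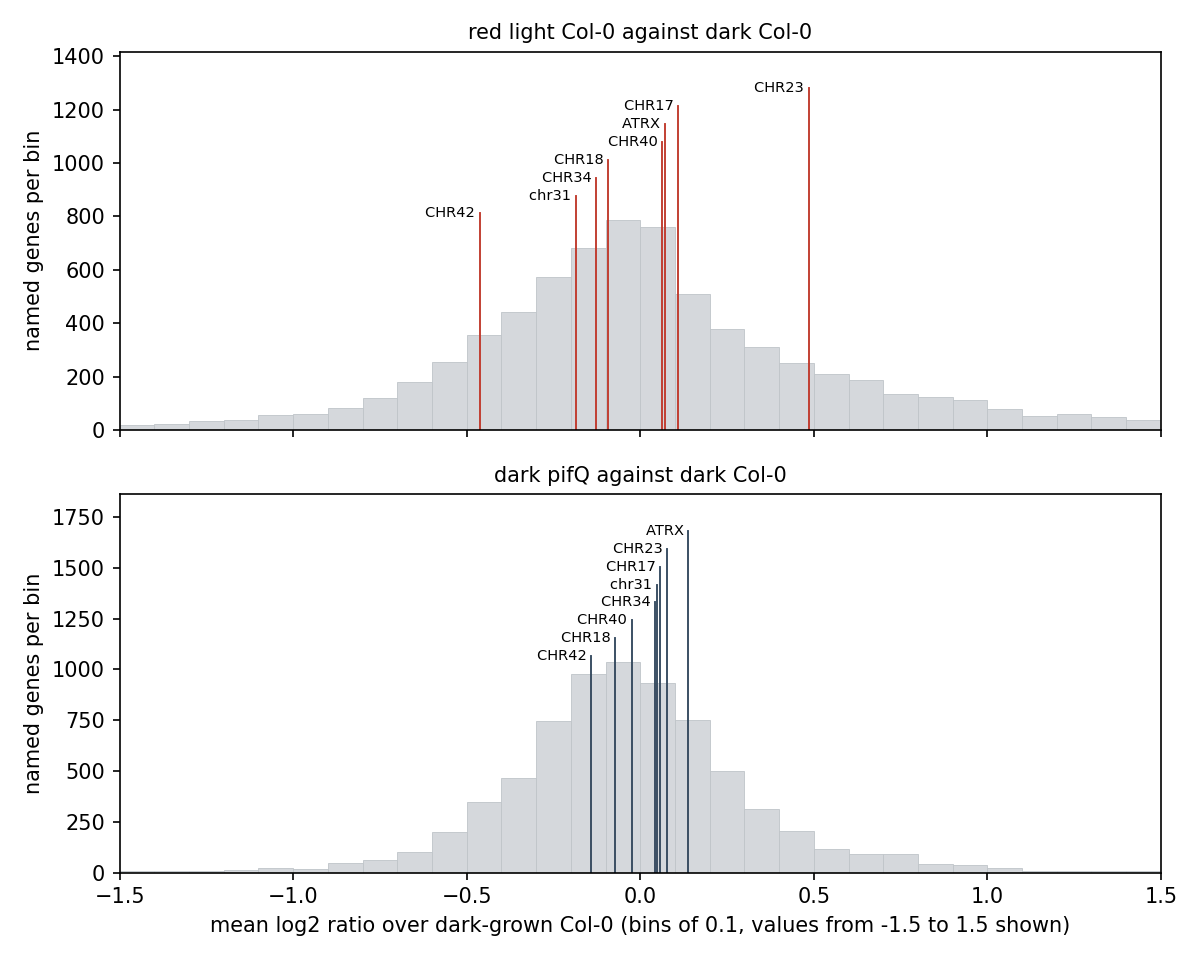
Distribution of the mean log2 ratio over dark-grown Col-0 for all 7234 named genes (grey bars, genes per bin of 0.1), with coloured lines at the means of the 8 SNF2-family genes, for red light Col-0 (upper panel) and dark pifQ (lower panel). The horizontal axis ends at -1.5 and 1.5, beyond which lie 275 genes in red light and 53 in pifQ. CHR23 and CHR42 stand apart from the other 6 genes in red light, at 0.49 and -0.46, and all 8 lie between -0.14 and 0.14 in pifQ.

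When red light Col-0 was compared with dark pifQ, which are the 2 conditions named in the series' design text, no gene of the 8 passed. CHR23 had the largest difference, 1.33-fold higher in red light (log2 0.41, SE 0.16), with an unadjusted p of 0.0354 and an adjusted p of 0.230 by limma. CHR42 was next, with a log2 difference of -0.32 (SE 0.18, adjusted p = 0.407), followed by chr31 at -0.23 (SE 0.16, adjusted p = 0.483). The other 5 genes had differences from -0.17 (CHR34) to 0.09 (CHR40). By limma 3.36% of all genes passed here (2.2% higher and 1.16% lower), 159 higher and 84 lower in red light (72 and 18 with arrays scaled to the same spread). CHR23 was the 1 gene of the 8 with an unadjusted p under 0.05, and over 15 alternative settings its adjusted p ran from 0.0592 to 0.595.

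The red light and pifQ arrays did not overlap for 3 of the 8 genes, CHR23 with red light higher, and chr31 and CHR42 with red light lower. Among all genes, 23.8% had groups that did not overlap, 13.2% with red light higher and 10.6% with red light lower. The widest 95% intervals of this difference reached 0.78 for CHR23 and -0.74 for CHR42, so that differences up to 1.72-fold between the groups remained within them. CHR23 and CHR42, which passed in red light and not in pifQ, were thus not shown to differ between red light and pifQ.

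Ordered by their red light means, the 8 genes ran from CHR23 through CHR17, ATRX, CHR40, CHR18, CHR34 and chr31 to CHR42. CHR23 exceeded CHR17, the next in order, by a log2 difference of 0.38 ± 0.26 and did so on 3 of 3 arrays without overlap. At the other end chr31 exceeded CHR42 by 0.28 ± 0.16 on 3 of 3 arrays, although the range of the genes' values overlapped. The 5 steps between CHR17 and chr31 were each smaller than their SD over the arrays, the largest being 0.15 ± 0.32 from CHR40 to CHR18. In pifQ the order began with ATRX and CHR23 and ended with CHR18 and CHR42, and 6 of its 7 steps were smaller than their SD. The exception was the last, in which CHR18 exceeded CHR42 by 0.07 ± 0.05 on 3 of 3 arrays.

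The genes whose 6 array values were closest to those of CHR23, by Euclidean distance on the log2 scale, were AT1G70280 (distance 0.153) and AT5G35400 (0.205). For CHR42 they were AT1G64300 (0.226) and AT1G70620 (0.244). CHR18 was closest to UBC33 (0.101) and AT3G54130 (0.112), chr31 to AT1G76660 (0.115) and PUB49 (0.135), and CHR34 to AT3G02030 (0.115) and AT1G14940 (0.124). CHR40 was closest to AT5G48340 (0.102) and AT5G37380 (0.129), ATRX to AT1G11780 (0.139) and SWI1 (0.140), and CHR17 to AT1G21560 (0.176) and AT4G34920 (0.201). Patterns near 0 on every array are common, and 1083 genes lay within a distance of 0.5 of CHR18, against 148 for CHR23 and 206 for CHR42.

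ATRX and CHR34 lie nearer to a mutated PIF gene than the other members do. In the TAIR10.1 gene order, 96 protein-coding genes separate ATRX from PIF3 and 148 separate CHR34 from PIF1 (PIL5), while at least 436 lie between any other member and a mutated PIF gene on its chromosome. The pifQ ratios of these 2 genes, 0.14 ± 0.09 for ATRX and 0.04 ± 0.10 for CHR34, did not pass (adjusted p = 0.427 and 0.824 by limma).

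Of 32 further genes listed as SNF2-family members, 4 had a named feature, and 1 of these rose and 1 fell in red light, where 37.8% of all genes passed. AT3G54460, which encodes an SNF2-type protein with an F-box, stood at 0.65, 1.08 and 0.68 on the red light arrays and at 0.60, -0.24 and 0.26 on the pifQ arrays. It rose 1.75-fold in red light (log2 0.81 ± 0.24, adjusted p = 0.00593 by limma), and its call held without each array in turn. INO80, the ATPase of the complex of that name, stood at -0.17, -0.47 and -0.41 on the red light arrays, a 1.28-fold lower level (log2 -0.35 ± 0.16, adjusted p = 0.0384). This call was lost without each of the 3 red light arrays, at adjusted p = 0.0814 to 0.181, with arrays scaled to the same spread (adjusted p = 0.0715) and after quantile normalization (adjusted p = 0.0622). CHR36, at -0.31 ± 0.16 (adjusted p = 0.0878), and RAD5A, a DNA repair ATPase, at 0.07 ± 0.19 (adjusted p = 0.730), did not pass. With these genes added, 2 of 12 measured SNF2-family genes rose and 2 fell in red light, and 0 passed in pifQ against dark Col-0 or in red light against pifQ. The shares of all genes that passed in these comparisons were 37.8%, 11.6% and 3.36%.

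Both measured genes for H3.3, the histone that ATRX helps to deposit, rose in red light, as did 18.8% of all genes. ATRX itself had no call there. HTR8 rose 2.72-fold (log2 1.44 ± 0.38, adjusted p = 0.000419) and HTR5 rose 1.90-fold (log2 0.93 ± 0.43, adjusted p = 0.00429), both by limma and both also without each array in turn. In dark pifQ HTR8 stood at 0.76, 0.42 and 1.10 on replicates 1, 2 and 3 and rose 1.69-fold (adjusted p = 0.0267), a call that was lost without each of the 3 pifQ arrays in turn and without red light replicate 1, at adjusted p = 0.0504 to 0.117. HTR5, at 0.12 ± 0.32 in pifQ, did not pass (adjusted p = 0.689). These genes code for the same H3.3 protein, and how far their features tell their transcripts apart was not tested. The third measured gene of this list of 12, the histone chaperone gene ASF1B, had log2 ratios of -0.13 ± 0.05 in red light (adjusted p = 0.531) and 0.28 ± 0.36 in pifQ (adjusted p = 0.234).

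Of 14 listed partners of the SWI/SNF and ISWI ATPases, 5 were measured, and none passed in red light, where 37.8% of all genes did. Their red light ratios ran from -0.17 ± 0.12 (ARID5) to 0.12 ± 0.22 (SWI3D). The SWI/SNF subunit genes SWI3A, SWI3D, BSH and SWP73A also had no call in pifQ. There 11.6% of all genes passed. ARID5, a subunit of plant ISWI complexes and so a partner of CHR17, stood at -0.41, -0.74 and -0.27 on the pifQ arrays and fell there by 0.48 on the log2 scale (adjusted p = 0.0420 by limma). That call was lost without pifQ replicate 1 or 2 and without each red light array, at adjusted p up to 0.155. Centring each array on its median also ended it, at log2 -0.42 with an adjusted p of 0.0589. The INO80 and SWR1 partner list had 3 measured genes of 10 and no call, with the largest red light ratio in RVB21, a RuvB-like ATPase gene, at 0.50 ± 0.20 (adjusted p = 0.0794).

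**Figure D4:**
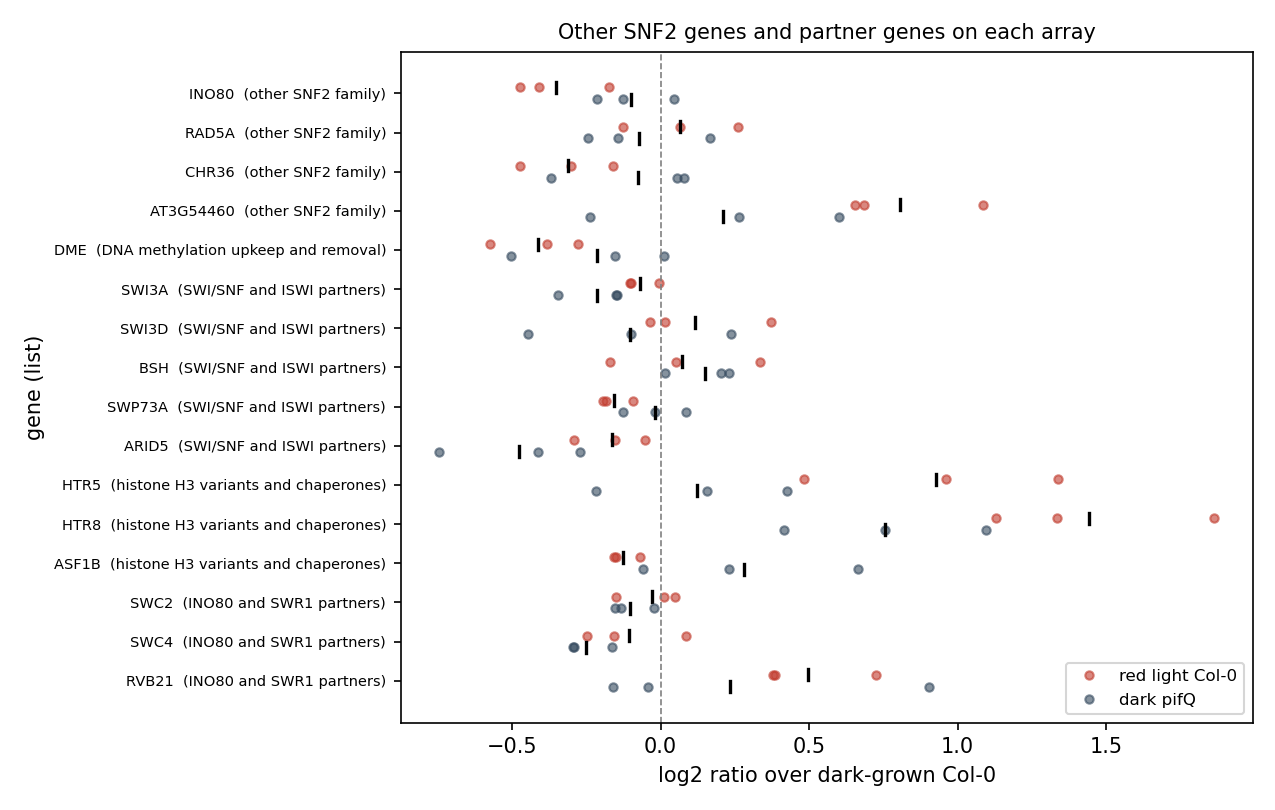
Log2 ratio over dark-grown Col-0 (horizontal axis) of the 4 other SNF2-family genes and the 12 partner genes that were measured (vertical axis, list in brackets), with a dot for each array (red for red light Col-0, dark for dark pifQ) and a black bar at each group mean. HTR8, HTR5, AT3G54460 and RVB21 have all red light arrays above 0, with means of 1.44, 0.93, 0.81 and 0.50. Most other genes lie near 0.

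Among genes that maintain or remove DNA methylation, the process that the CLASSY proteins serve, 1 of 12 listed genes had a named feature. This gene, DME, a DNA glycosylase that removes methylated cytosine, fell by 0.41 on the log2 scale in red light (SD 0.15, adjusted p = 0.0347 by limma), from values of -0.38, -0.57 and -0.28. The call was lost without each of the 3 red light arrays (adjusted p = 0.0677 to 0.175), without pifQ replicate 1 (adjusted p = 0.0503), with arrays scaled to the same spread (adjusted p = 0.0740) and after quantile normalization (adjusted p = 0.0721). No gene of the list of 23 RNA-directed DNA methylation genes or of the 6 Polycomb genes had a named feature.

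Some transcripts used as cell type markers changed in these groups, by cell share or by level per cell, which cannot be told apart. The 3 chloroplast markers LHCB4.1, RCA and PSBW stood between log2 3.68 and 4.04 in red light and between 1.86 and 2.40 in pifQ. Of 12 markers of dividing cells 1 was measured, the replication helicase gene MCM7, which rose 1.46-fold in red light (log2 0.54 ± 0.08) and 1.34-fold in pifQ (log2 0.42 ± 0.09, adjusted p = 0.0352). The pifQ call of MCM7 was lost without any 1 of 5 arrays, all but red light replicate 2, at adjusted p up to 0.139. The guard cell marker FAMA rose in red light (log2 0.86 ± 0.05) and did not pass in pifQ (0.19 ± 0.47, adjusted p = 0.474 by limma). The root hair marker EXPA18, 1 of 2 listed, did not pass in red light (-0.21 ± 0.41, adjusted p = 0.331) or in pifQ (0.23 ± 0.13, adjusted p = 0.358). The shoot apex and seed storage markers had no named feature. The part of changed cell types in the CHR23 and CHR42 ratios was not tested.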

How the data were processed

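Transcript levels were measured on 6 two-colour arrays, 3 of red light Col-0 and 3 of dark pifQ. The deposited table holds log2 ratios of Cy5 over Cy3 for 45220 features. Direction and dyes are per the labels, limma is named per the submitters' processing notes, while background correction and normalization are not given there or in the labels. No source gives the logarithm's base, which was read as 2 since values span -5.63 to 7.85. Column medians lie between -0.005 and -0.00036. The table holds no intensities, so dim or saturated spots went unmarked, and precision rests on the number of arrays.

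Platform names matched 7440 features to 7234 genes of the TAIR10.1 annotation, and features of a gene were averaged. Values were fitted in R 4.3.3 with limma 3.58.1 (lmFit, eBayes), 1 coefficient per group over all 6 arrays, with two-sided tests adjusted by Benjamini-Hochberg over the 7234 genes and called at 0.05. The fit was tested on simulated data. Replicate numbers did not pair arrays (correlation of deviations -0.148 to -0.176), so no block was used. All 8 genes are named, with every measured SNF2-family gene, list members that passed and, per gene, its 2 nearest genes by distance, and other measured list members where they complete a small count. The members and lists were chosen with earlier results of these data known. Promoter and protein sequences were not used here.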

Additional observations from a re-analysis of the deposited data

How the results depend on the processing

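The CHR23 and CHR42 calls in red light each held under 14 of 16 alternatives, many of which kept the ratios unchanged. Each of these calls was lost when either of 2 red light arrays was left out. In red light, leaving out 1 array gave 0 to 2 calls among the 8 genes and 1432 to 3001 called genes overall (2731 with all arrays). With each of the 45220 features tested separately, named or not, 8431 features were called. With array weights the called genes numbered 4508. In pifQ against dark Col-0 none of the 8 genes was called under the 16 alternatives. Called genes there numbered 230 to 804 when 1 array was left out (841 with all) and 443 with only the pifQ arrays in the fit. With every feature tested, 1846 features were called. In red light against pifQ none of the 8 genes was called under the 15 alternatives. Called genes there numbered 61 to 563 when 1 array was left out (243 with all), 90 with arrays scaled to the same spread and 74 after quantile normalization. With every feature tested, 525 features were called. With a robust prior and trend 160 genes were called, and with array weights 639 genes. With the replicate number as a block the count was 120, and the block changed no call of the 8 genes. The cause of these shifts was not tested, apart from fewer arrays or more features.

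Ratios without a call changed sign in some settings. In red light, leaving out 1 array put CHR40 between -0.056 and 0.17. In pifQ, CHR40 was 0.027 after centring and -0.13 to 0.10 when 1 array was left out, CHR17 -0.089 to 0.17, chr31 -0.026 to 0.10 and CHR34 -0.0088 to 0.091. In red light against pifQ, CHR17 was -0.022 after quantile normalization and -0.013 with array weights, and ATRX was 0.043 with array weights. Leaving out 1 array there gave -0.059 to 0.20 for CHR17, -0.086 to 0.023 for CHR18 and -0.033 to 0.20 for CHR40. Leaving out the 25% of genes nearest 0 removed 6 of the 8 genes, all but CHR23 and CHR42, from the test. Among calls of genes beyond the 8, those of AT3G54460, HTR5, HTR8 and MCM7 in red light held under 16 of 16 alternatives. Many of these alternatives kept the ratios unchanged. The red light calls of INO80, DME, ULT1, HTB1 and HTB4 were lost under 6, 7, 7, 2 and 2 of them, and the pifQ calls of ARID5, HTR8 and MCM7 under 10, 6 and 8, all without a change of sign.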

Other observations

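Other chromatin genes were picked by name from the measured genes after the lists above. The histone H2B genes HTB1 and HTB4 were among them and rose in red light, as did 18.8% of all genes. HTB1 rose 2.05-fold (log2 1.04 ± 0.60, adjusted p = 0.00685 by limma) and HTB4 rose 1.40-fold (log2 0.48 ± 0.25, adjusted p = 0.0146). Both calls were lost without red light replicate 1 or 2, at adjusted p = 0.0511 to 0.101. In dark pifQ HTB1 stood at 0.71 ± 0.39 (adjusted p = 0.0718) and HTB4 at 0.35 ± 0.06 (adjusted p = 0.0996). H2B genes have near-identical copies, so which copies changed is uncertain. The linker histone-type gene HON4 stood at -0.24 ± 0.12 in red light (adjusted p = 0.118).

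ULT1, a gene that acts with the trithorax group against Polycomb silencing, rose 1.52-fold in red light (log2 0.60 ± 0.27, adjusted p = 0.0404 by limma), where 18.8% of all genes rose. Its call was lost without each red light array, without pifQ replicate 1 (adjusted p = 0.0556) and after quantile normalization (adjusted p = 0.167). HDA15, a histone deacetylase gene, stood at -0.23 ± 0.07 in red light (adjusted p = 0.195) and -0.0093 ± 0.30 in pifQ (adjusted p = 0.975). The deacetylase gene HDA7 had 0.09 ± 0.05 and 0.17 ± 0.14. NRPD7 and NRPE7, subunit genes of RNA polymerases IV and V, had red light ratios of 0.23 ± 0.25 (adjusted p = 0.344) and 0.02 ± 0.04 (adjusted p = 0.947).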
